A study of Mus musculus with 4 samples.

Results

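YAP (gene Yap1) and TAZ (gene Wwtr1), their DNA-binding partner TEAD1 and a set of direct target genes were followed in mouse aorta with and without geranylgeranyl diphosphate synthase (GGPPS, gene Ggps1). Members were taken by symbol: Yap1, Wwtr1, Tead1, Lats2, Ankrd1, Amotl2, Ajuba, Axl, Cyr61 (now Ccn1) and Ctgf (now Ccn2). All 10 were found among the 24346 rows of each file. RNA came from aorta of 3-week-old C57BL/6 mice, with 2 libraries labelled wild type and 2 labelled knockout, and each library's label names males and females. The labels do not say in which cells Ggps1 was deleted, by what driver, or whether a library held 1 animal or a pool. Nothing says that libraries of a genotype were separate biological samples, so the p-values rest on a spread that may be technical.

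YAP and TAZ are transcriptional coactivators that bind DNA through TEAD factors. The kinases of the Hippo pathway, ending in LATS1 and LATS2, phosphorylate them, and 14-3-3 proteins then hold them in the cytoplasm. Tension on the actin skeleton favours their entry into the nucleus. GGPPS makes the lipid donor for protein geranylgeranylation, which anchors many signalling proteins in membranes. In vessel wall, YAP and TAZ are known for roles in smooth muscle growth and in the response to flow and stretch. Transcript levels say nothing of where the YAP and TAZ proteins were.

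Because TEAD factors recognise the hexamer GGAATG, which reads as CATTCC on the other strand, RefSeq promoter windows of build GRCm38.p6, from 250 bases before to 50 bases after each transcription start, were searched on both strands. Windows were given for 8 of the 10 members, and each of these 8 genes had the hexamer in at least 1 window. It was in 14.7% of all 32851 windows and 16.6% of the 27025 genes with a window. In the pan-cancer and conserved target signatures described below, 2 of 10 and 5 of 34 genes with a window had it. Of smooth muscle marker genes 3 of 4 had it, and of endothelial and macrophage marker genes 0 of 4 each. The hexamer was also in 4 of 6 other TEAD and VGLL genes, 3 of 4 skeletal muscle markers and 3 of 7 cardiac markers. In further lists used below, it was in 3 of 12 genes of the Hippo kinase module and 3 of 10 junction and polarity regulators. The 14-3-3 genes had it in 0 of 5 cases. The hexamers of the members are shown in capitals with 10 bases on each side, 5′ to 3′ on the strand of the gene. Neither the AP-1 motif TGANTCA, held by 7.81% of all windows, nor the serum response element, held by 1.63%, occurred in any member window. A match is a description of these letters, not of bound TEAD.
Yap1, 141 bases upstream, chr9:8004722-8004747, minus strand: ggagtctgcaGGAATGtagcgacgcg
Wwtr1, 136 bases upstream, chr3:57576031-57576056, minus strand: taaactcaaaGGAATGcagataggcg
Lats2, 5 bases into the transcript, chr14:57746104-57746129, minus strand: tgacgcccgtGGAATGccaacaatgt
Ankrd1, 210 bases upstream, chr19:36120039-36120064, minus strand: cactgccaaaGGAATGaccctctcac
Ankrd1, 123 bases upstream, chr19:36119952-36119977, minus strand: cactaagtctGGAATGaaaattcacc
Amotl2, 65 bases upstream, chr9:102717729-102717754, plus strand: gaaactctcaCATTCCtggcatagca
Ajuba, 186 bases upstream, chr14:54577832-54577857, minus strand: ttgatggataCATTCCacagtgcccc
Ajuba, 164 bases upstream, chr14:54577810-54577835, minus strand: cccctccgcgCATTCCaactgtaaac
Axl, 233 bases upstream, chr7:25788951-25788976, minus strand: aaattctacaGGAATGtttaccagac
Cyr61, 103 bases upstream, chr3:145650073-145650098, minus strand: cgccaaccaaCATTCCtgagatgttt

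The printed stretches of Yap1, Wwtr1, Ajuba, Axl and Cyr61, each the hexamer with its flanks, overlapped no GENCODE M21 transcript. The stretches of Ankrd1 and Amotl2 lay inside exons annotated for the same genes, and 20 bases of the Lats2 stretch lay in its own exon. Of the 250 bases upstream of each start, 17 of Yap1 lay in an exon of Gm45494, 136 of Amotl2 and all of Ankrd1 in exons of the gene itself, and 34 of the second Wwtr1 window in an exon of Wwtr1. Among tested genes with a RefSeq window, the hexamer was present in 13.6% of those called higher, 16.4% of those called lower and 13.5% of those not called. The whole 250 bases upstream of Cyr61 (chr3:145649986-145650235, minus strand), a classic YAP and TAZ target, are given with the hexamer in capitals.
Cyr61 upstream: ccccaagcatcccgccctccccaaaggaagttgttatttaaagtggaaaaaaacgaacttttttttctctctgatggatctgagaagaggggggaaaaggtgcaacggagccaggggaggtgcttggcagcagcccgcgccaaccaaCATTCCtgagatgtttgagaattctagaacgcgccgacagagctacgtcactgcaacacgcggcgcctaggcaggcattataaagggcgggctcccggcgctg

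Levels are FPKM, by definition fragments scaled by transcript length and by the mapped fragments of a library. That allows levels of genes to be compared, but the transcript lengths used are not known. FPKM summed to between 515847 and 632852 per library, and the number of fragments behind them is unknown. Ggps1 itself was lower in knockout, at 1.18 and 1.07 FPKM against 8.96 and 10.6 FPKM, the direction of the labels. Changes are log2 fold changes of FPKM + 1, knockout minus wild type, tested with limma over the 12312 genes that reached 1 FPKM in 2 or more libraries, with Benjamini-Hochberg adjustment and a threshold of 0.05. All 10 members passed that filter, each with a mean above 1 FPKM in wild type.

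In the knockout libraries the target genes split. Ctgf, a secreted matricellular protein, rose 2.89-fold and Ankrd1, a muscle ankyrin repeat protein, rose 6.25-fold by the ratio of mean FPKM. Yap1 and the feedback regulators Lats2 and Amotl2 fell, by ratios of 1.40, 1.53 and 1.98. Tead1 passed as lower with an adjusted p close to the threshold. Wwtr1, Ajuba, Axl and Cyr61 did not pass. Thus 2 of 10 members were called higher, beside 35.2% of all genes tested, and 4 of 10 lower, beside 30.6%. Either call was made for 65.7% of all genes, so the number of members called is near the background. The library values of the genotypes did not overlap for 8 of 10 members, against 83.1% of genes tested. The median change of the members was -0.20 on the log2 scale and that of all genes 0.03. After removal of the trends of change with transcript length and GC content, an alternative chosen after seeing the data, the median of the members was 0.03.

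**Figure D1:**
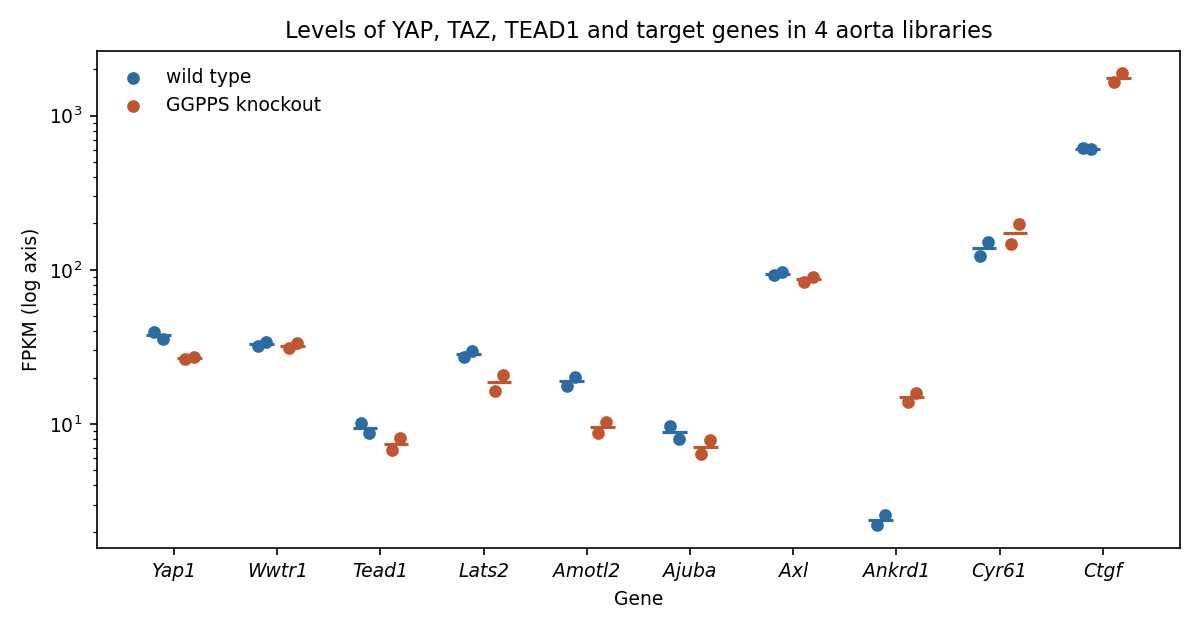
FPKM of each of the 10 genes (log axis) in the 2 wild-type and 2 GGPPS knockout libraries, 1 point per library, with a short line at each genotype's mean. Ctgf and Ankrd1 stand higher in both knockout libraries, Yap1, Lats2 and Amotl2 lower, and the points of Wwtr1 and Cyr61 overlap between genotypes.

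Yap1 (chromosome 9, 7931999 to 8004596, minus strand, mm10, 9 exons in its longest coding transcript) encodes the coactivator YAP. It stood at 39.7 and 35.5 FPKM in the wild-type pair against 26.5 and 27.2 FPKM in the knockout pair. Both knockout libraries lay below both wild-type libraries, and the log2 fold change was -0.47 (SE 0.11, limma adjusted p = 0.00177). Without wild-type library 1 the value was -0.39 and the call ended, in a fit that leaves 1 genotype with 1 library. Wwtr1 (chromosome 3, 57455649 to 57575910, minus strand, 7 exons), which encodes the paralogue TAZ, had values of 31.9 and 33.8 FPKM in the wild-type pair against 31.1 and 33.5 FPKM in the knockout pair. Its libraries overlapped between genotypes. The log2 fold change was -0.02 with a 95% interval of -0.25 to 0.20 (limma adjusted p = 0.851), which leaves room for changes of that size in either direction.

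The balance between the coactivators thus differed between the libraries. The ratio of Wwtr1 to Yap1 FPKM was 0.804 and 0.953 in wild type and 1.17 and 1.23 in knockout. By FPKM, Yap1 was the higher of the pair in both wild-type libraries and Wwtr1 in both knockout libraries. An exact two-sided permutation test of this ratio gave p = 0.333, the smallest value that 2 libraries against 2 can give. The same p was found for each of the 5 ratios examined, and for each after adjustment over them.

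Tead1 (chromosome 7, 112679318 to 112906807, plus strand, 14 exons) encodes a TEAD factor through which YAP and TAZ reach DNA. Its values were 10.2 and 8.76 FPKM in the wild-type pair against 6.80 and 8.07 FPKM in the knockout pair. The groups did not overlap, but the nearest libraries differed by less than the spread within either genotype. The log2 fold change was -0.31 (SE 0.13, limma adjusted p = 0.0481), and the call held in 7 of 13 alternative settings. After removal of length and GC trends the value turned to 0.11 (adjusted p = 0.378 by limma). Leaving out wild-type library 2 gave -0.41, and the call ended although the value was larger. Leaving out wild-type library 1 gave -0.21 and leaving out knockout library 1 gave -0.20, and the call ended in each.

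TEAD1 was not the most abundant TEAD transcript. Tead3 stood at 77.25 and 74.9 FPKM in the wild-type pair against 25.3 and 27.5 FPKM in the knockout pair, a log2 fold change of -1.49 (SE 0.10, limma adjusted p = 3.16e-08). The ratio of Tead3 to Tead1 was 7.58 and 8.55 in wild type and 3.72 and 3.41 in knockout. Tead2 was higher, from 14.2 and 11.4 to 18.3 and 17.2 FPKM (log2 change 0.45, limma adjusted p = 0.00651). That call ended when columns were scaled to equal totals (0.20, limma adjusted p = 0.161) and without wild-type library 2 (0.30). Tead4 stayed under 1 FPKM in each library. Vgll4, a cofactor that competes with YAP for TEAD, fell from 15.7 and 17.2 to 9.52 and 10.3 FPKM (log2 change -0.68, limma adjusted p = 0.000171). Vgll3 did not pass. Vgll1 was listed at 0 in the 4 libraries and Vgll2 was under 1 FPKM. Of the 7 genes of this list 4 were tested, with a median of -0.43, and 1 rose and 2 fell, beside 35.2% and 30.6% of all genes.

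Lats2 (chromosome 14, 57689662 to 57758388, minus strand, 8 exons) encodes a kinase that phosphorylates YAP and TAZ and is also one of their targets. It measured 27.4 and 29.6 FPKM in the wild-type pair against 16.3 and 20.9 FPKM in the knockout pair. Both knockout libraries were lower, although they differed from each other by 0.33 on the log2 scale, and the log2 fold change was -0.60 (SE 0.13, limma adjusted p = 0.000883). Lats2 shares its locus and strand with the GENCODE M21 gene Gm49361, which is not listed under that symbol among the deposited values. Whether it affected the counting of Lats2 reads is not known. Its paralogue Lats1 went from 11.0 and 10.7 to 7.63 and 9.37 FPKM (log2 change -0.32, limma adjusted p = 0.0374). That call ended in 5 of the 13 alternatives. It ended with no filter on low values (-0.32, limma adjusted p = 0.0843) and after removal of length and GC trends (-0.05, limma adjusted p = 0.691). The others were leaving out wild-type library 1 or 2 (-0.31 and -0.34) and leaving out knockout library 1 (-0.19).

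Amotl2 (chromosome 9, 102716672 to 102733418, plus strand, 10 exons) encodes an angiomotin-family scaffold that binds YAP and holds it at junctions and actin. Its levels were 17.8 and 20.0 FPKM in the wild-type pair against 8.76 and 10.4 FPKM in the knockout pair. Each knockout library was below each wild-type library, and the log2 fold change of -0.92 (SE 0.12, limma adjusted p = 1.96e-05) was the deepest fall among the members in these libraries. Amotl1, its relative, was at 12.3 and 10.9 against 9.85 and 11.8 FPKM and did not pass, and Amot stayed under 1 FPKM.

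Ajuba (chromosome 14, 54567472 to 54577558, minus strand, 8 exons) encodes a LIM protein that binds LATS kinases. It measured 9.71 and 7.97 FPKM in the wild-type pair against 6.42 and 7.88 FPKM in the knockout pair, 4 values that barely separated. The log2 fold change was -0.27 with a 95% interval of -0.57 to 0.02 (limma adjusted p = 0.095). Its LIM relatives Limd1 and Wtip were both lower. Limd1 went from 12.5 and 13.6 to 7.78 and 8.28 FPKM (log2 change -0.63, limma adjusted p = 0.000333), and Wtip was more abundant, at 132 and 113 against 93.1 and 79.4 FPKM.

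Axl (chromosome 7, 25757273 to 25788705, minus strand, 20 exons) encodes a receptor tyrosine kinase of the TAM family. Its level changed little, from 92.5 and 96.6 to 84.0 and 89.4 FPKM, with a log2 fold change of -0.12 and a 95% interval of -0.34 to 0.09 (limma adjusted p = 0.279). The knockout values lay just below the wild-type values. Gas6, the main ligand of Axl, fell from 222 and 266 to 102 and 124 FPKM (log2 change -1.11, SE 0.12, limma adjusted p = 2.2e-06). Gas6 transcripts stood at 2.40 and 2.75 times those of Axl in wild type and at 1.21 and 1.38 times in knockout. Pros1, the other TAM ligand, did not pass, and Mertk, a TAM receptor, was at 21.1 and 24.6 against 13.4 and 16.9 FPKM (log2 change -0.56, limma adjusted p = 0.00177). Tyro3, the other TAM receptor, was higher, from 9.70 and 7.60 to 12.3 and 10.3 FPKM (log2 change 0.35, limma adjusted p = 0.0386). That call ended in 5 of the 13 alternatives, among them leaving out wild-type library 2 (0.19) or knockout library 1 (0.23).

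Ankrd1 (chromosome 19, 36111961 to 36120099, minus strand, 9 exons) encodes a stress-responsive protein of striated muscle that is also used as a reporter of YAP and TAZ. It measured 2.21 and 2.58 FPKM in the wild-type pair against 13.9 and 16.0 FPKM in the knockout pair. The change was large against the spread within genotypes (log2 change 2.23, SE 0.13, limma adjusted p = 5.3e-09). Its level moved from the 16.1st percentile of tested genes in wild type to one close to that of Lats2 in knockout. Its relative Ankrd23 went the other way, from 15.7 FPKM in both wild-type libraries to 9.44 and 8.77 FPKM (log2 change -0.72, limma adjusted p = 8.27e-05). Ankrd2 was listed at 0 in the wild-type pair and reached 0.063 and 0.111 FPKM in the knockout pair.

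Heart tissue is a known source of Ankrd1, so cardiac genes are given beside it. The defining markers Myh6, Myl7 and Nppa were each under 1 FPKM in the 4 libraries. At those low levels each was lower in both knockout libraries than in both wild-type libraries, Nppa barely so (0.144 against 0.156 FPKM at the nearest). The 7 cardiac markers summed to 33.5 and 31.9 FPKM in wild type and to 89.0 and 103 FPKM in knockout. Of the 4 tested, Tnnt2 and Myl4 rose and Actc1 and Tnni3 fell. Tnnt2 alone went from 11.9 and 9.78 to 69.8 and 82.7 FPKM. In skeletal muscle, Myh1 and Myh4 were listed at 0 in each library, and Ckm and Tnnt3 fell. Actc1 (4.62 and 6.66 FPKM in wild type) and Ckm (2.53 and 3.73 FPKM) were tested only because of their wild-type values.

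Ctgf (chromosome 10, 24595442 to 24598683, plus strand, 4 exons), also named connective tissue growth factor, was by far the most abundant member. It stood at 615 and 608 FPKM in the wild-type pair against 1656 and 1883 FPKM in the knockout pair. The wild-type libraries were nearly equal, and both knockout libraries stood far above them. The log2 fold change was 1.53 (SE 0.09, limma adjusted p = 1.05e-08). Ctgf made up 63.4% and 61.1% of the summed FPKM of the 10 members in wild type and 82.9% and 82.1% in knockout. Its share of all FPKM went from 0.119% and 0.117% to 0.271% and 0.297%. An annotated antisense transcript, Gm15270, overlaps Ctgf, as Gm20416 does Yap1 and Gm16016, a pseudogene, Wwtr1, and the sources used here do not say whether counting used strand.

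Cyr61 (chromosome 3, 145646976 to 145649981, minus strand, 5 exons), the nearest functional relative of Ctgf among the members, did not share this change. Its values were 124 and 152 FPKM in the wild-type pair against 147 and 198 FPKM in the knockout pair, so that the lower knockout library lay below the higher wild-type library. The log2 fold change was 0.31 (SE 0.14, 95% interval 0.02 to 0.61, limma adjusted p = 0.0576). The value was 0.46 when wild-type library 2 was left out and 0.53 when knockout library 1 was, fits that leave 1 genotype with 1 library. The ratio of Ctgf to Cyr61 was 4.98 and 4.003 in wild type and 11.3 and 9.51 in knockout.

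Replicates of Cyr61 differed by 0.30 on the log2 scale in wild type and 0.43 in knockout, while the median gene differed by 0.09 and 0.14. Cyr61 is known as an immediate early gene. Of 7 other immediate early genes, chosen after values were seen, Egr1, Ier2, Junb and Atf3 rose and Fos, Fosb and Jun fell. Their part in the Cyr61 values was not tested.

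**Figure D2:**
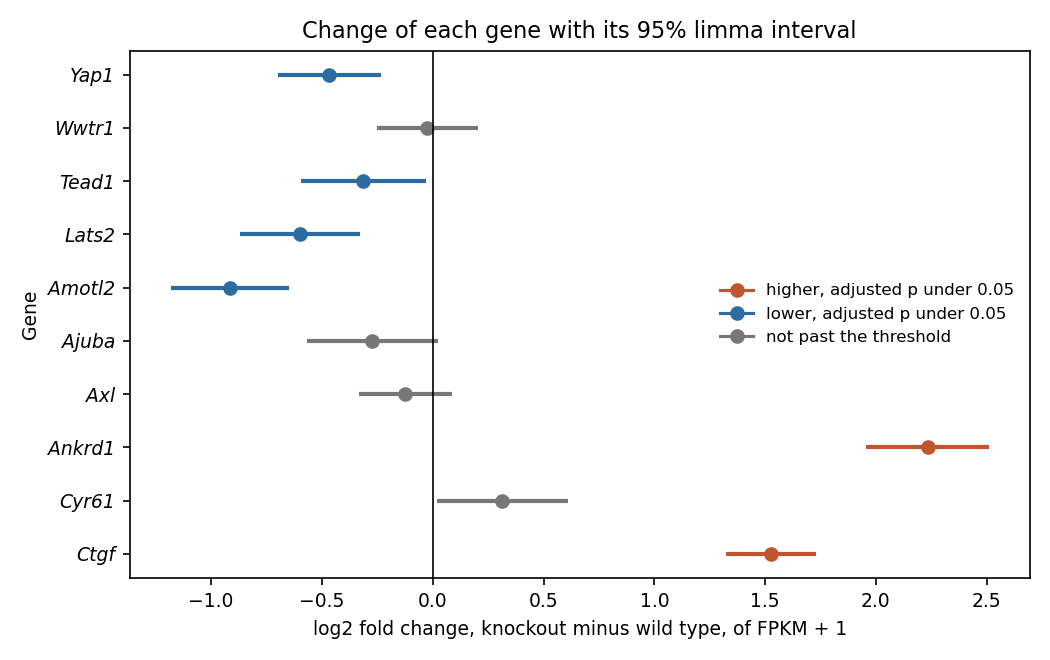
Log2 fold change of FPKM + 1 (knockout minus wild type, horizontal axis) for each gene, as a point with its 95% limma interval, coloured by call. Ankrd1 at 2.23 and Ctgf at 1.53 stand far to the right of the other members, Amotl2 at -0.92 furthest to the left, and the interval of Wwtr1 spans 0.

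In order of level, the wild-type means ran from Ctgf (612 ± 5.29 FPKM, mean ± SD, n = 2) through Cyr61 (138 ± 20.0), Axl (94.6 ± 2.92), Yap1 (37.6 ± 2.98), Wwtr1 (32.9 ± 1.35), Lats2 (28.5 ± 1.53), Amotl2 (18.9 ± 1.61), Tead1 (9.47 ± 1.01) and Ajuba (8.84 ± 1.23) to Ankrd1 (2.39 ± 0.26). Only the neighbours Tead1 and Ajuba overlapped in their library values. In knockout, Wwtr1 (32.3 ± 1.73) stood above Yap1 (26.9 ± 0.50), and Ankrd1 (15.0 ± 1.45) stood above Amotl2 (9.56 ± 1.12), Tead1 (7.44 ± 0.89) and Ajuba (7.15 ± 1.03). Tead1 and Ajuba again overlapped.

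The genes whose profile over the 4 libraries was most like that of a member were found by the Euclidean distance between mean-centred log2(FPKM + 1) values, as a description only. For Yap1 they were Loxl1, Creb3l2 and Fam161b, at distances of 0.016, 0.017 and 0.027. For Wwtr1 they were Kat5, Pdcl and Aaed1, at 0.011, 0.011 and 0.024. Fam83d and Pgf lay nearest to Ctgf, at 0.019 and 0.022. Cyr61 had no neighbour as close, with Pde1a, Alkbh3 and Chmp2a at 0.065, 0.079 and 0.090. With 4 libraries in 2 groups, such likeness mainly reflects the size of the difference between genotypes.

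Upstream of the members, the Hippo kinase module had 14 genes, all tested, with a median of -0.11. Of these 2 rose and 4 fell, beside 35.2% and 30.6% of all genes. The module had 1 higher and 8 lower with equal column totals, where 25.3% and 45.3% of all genes were called. After removal of length and GC trends it had 2 higher and 1 lower, where 35.7% and 29.2% of all genes were called. The core kinase genes Stk3 and Stk4 and the adaptor genes Sav1, Mob1a and Mob1b did not pass, nor did Nf2, the gene for the upstream regulator merlin. Taok2, a kinase that can activate the core kinases, fell from 38.6 and 37.3 to 25.1 and 25.8 FPKM (log2 change -0.56, limma adjusted p = 0.000326). Mink1 fell by the same size, a call that ended after removal of length and GC trends (-0.23, limma adjusted p = 0.0535). Taok3 rose from 5.06 and 4.99 to 7.73 and 8.07 FPKM (log2 change 0.56). Wwc2, a scaffold of the LATS kinases, was lower (log2 change -0.38). Its call ended without wild-type library 1 or 2 (-0.37 and -0.39) and after removal of length and GC trends (0.06, limma adjusted p = 0.626).

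The STRIPAK complex is a phosphatase assembly that holds the core kinases inactive. Of its 10 tested genes 1 rose and 1 fell, beside 35.2% and 30.6% of all genes, with a median of 0.01. Equal column totals gave 0 higher and 4 lower, where 25.3% and 45.3% of all genes were called. The gene that fell, Slmap, codes for the adaptor that brings the core kinases to the complex and is abundant in muscle. It went from 200.4 and 224 to 47.6 and 77.6 FPKM (log2 change -1.78, SE 0.17, limma adjusted p = 5.97e-07). The other, Ppp2ca, rose by 0.26 on the log2 scale, a call that ended in 6 of the 13 alternatives and was -0.004 at equal column totals (adjusted p = 0.97 by limma).

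Junction and polarity regulators fell in 6 and rose in 1 of 14 tested cases, beside 30.6% and 35.2% of all genes, with a median of -0.12. This balance turned after removal of length and GC trends, with 7 higher, 4 lower and a median of 0.15. At that setting 35.7% of all genes were called higher and 29.2% lower. Fat4 and Dchs1 form a receptor and ligand pair of giant cadherins. Fat4 fell from 7.01 and 7.28 to 3.09 and 3.68 FPKM (log2 change -0.90, limma adjusted p = 2.91e-05). Dchs1 fell by 0.77 on the log2 scale, and the call ended after removal of length and GC trends (-0.13, limma adjusted p = 0.28). Frmd6, a membrane-linked activator of the pathway, fell from 22.4 and 24.8 to 12.2 and 16.7 FPKM (log2 change -0.68, limma adjusted p = 0.00062).

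The genes of the 14-3-3 proteins rose in 5 and fell in 1 of 7 cases, beside 35.2% and 30.6% of all genes, with a median of 0.37. With equal column totals 3 rose and 1 fell, beside 25.3% and 45.3% of all genes. The gene that fell, Ywhaq, went from 146 and 143 to 121 and 126 FPKM (log2 change -0.22, limma adjusted p = 0.04996). Its call ended in 7 of the 13 alternatives, leaving out wild-type library 1 or 2 or knockout library 1 among them (-0.21, -0.24 and -0.20). The rise of Ywhab (0.26, limma adjusted p = 0.0295) ended in 6, among them leaving out wild-type library 1 or 2 or knockout library 2 (0.25, 0.27 and 0.22). Its value was -0.0005 with equal column totals. Sfn, the isoform sigma, rose from 2.05 and 2.29 to 14.6 and 13.9 FPKM (log2 change 2.26, SE 0.12, limma adjusted p = 2.82e-09). Ywhag rose from 35.5 and 32.3 to 69.1 and 69.6 FPKM (log2 change 1.01, limma adjusted p = 1.34e-06), and Ywhae rose by 0.55. Ywhah was higher by 0.37, a call that ended at equal totals (0.11, limma adjusted p = 0.36) and after removal of length and GC trends (0.18, limma adjusted p = 0.192). It also ended on leaving out wild-type library 1 (0.31) or knockout library 2 (0.23).

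**Figure D3:**
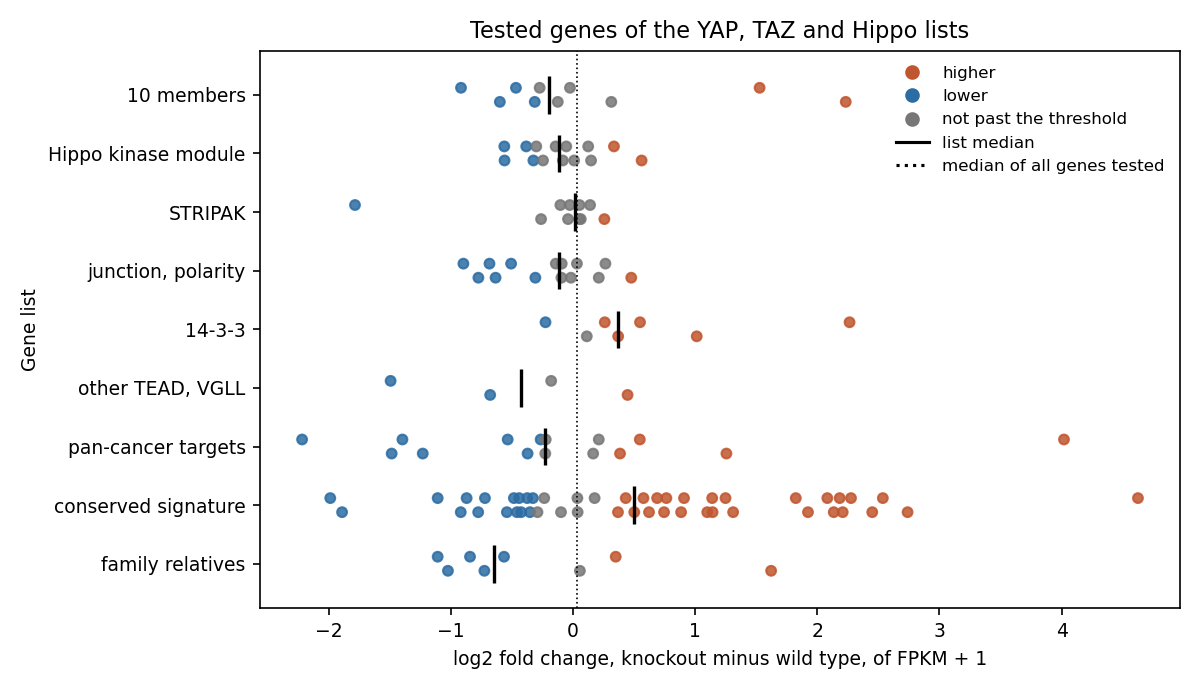
Log2 fold change of FPKM + 1 (horizontal axis) of each tested gene in the 10 members and 8 further lists, 1 point per gene coloured by call, with a black line at the list median and a dotted line at the median of all genes tested, 0.03. Every list except the 14-3-3 genes and the conserved signature has its median below 0.1, and the target lists spread widely to both sides.

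Further published targets were called in both directions. A pan-cancer YAP and TAZ target signature, without the members, had 15 of 16 genes tested, of which 4 rose and 7 fell, with a median of -0.23, and 6 rose and 5 fell after removal of length and GC trends (median -0.10). Its called share is to be read beside the 65.7% of all genes called, 35.2% higher and 30.6% lower. After removal of length and GC trends those shares were 35.7% higher and 29.2% lower. Of its tested genes, 14 averaged 1 FPKM or more in wild type. The other, Nuak2, a kinase gene and 1 of those that rose, was tested only because of its knockout values of 1.69 and 2.63 FPKM, against 0.338 and 0.275 FPKM in the wild-type pair. Gadd45a, a DNA damage response gene, rose from 4.14 and 5.08 to 82.8 and 97.0 FPKM (log2 change 4.02, SE 0.12, limma adjusted p = 1.57e-11). F3, the gene for tissue factor, fell from 40.4 and 43.6 to 7.58 and 8.96 FPKM (log2 change -2.22, SE 0.12, limma adjusted p = 2.47e-09). Arhgef17, a guanine nucleotide exchange factor, fell by 1.48 and Rbms3, an RNA-binding protein, by 1.40 on the log2 scale.

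An older conserved YAP signature, without the members and the pan-cancer genes, had 47 genes tested and a median of 0.50. Of these 26 rose and 15 fell, beside 35.2% and 30.6% of all genes. Of its tested genes, 42 averaged 1 FPKM or more in wild type. The other 5, Cenpf, Ect2, Hmmr, Itgb2 and Shcbp1, were tested only because of their knockout values, and all are among those that rose. Slit2, among those that fell, was tested only because of its wild-type values, 1.44 and 1.52 FPKM against 0.835 and 0.861 FPKM in knockout. With a filter of 5 FPKM in 2 libraries, 20 rose and 13 fell of 39 tested, with a median of 0.37. Of all genes tested at that filter, 37.9% were called higher and 30.4% lower. Thbs1, thrombospondin 1, rose from 14.4 and 13.5 to 349.9 and 388 FPKM (log2 change 4.62, SE 0.10, limma adjusted p = 6.59e-13). Birc5, a mitotic gene, rose by 2.74 on the log2 scale. Tns1, which links integrins to actin, fell from 380.5 and 384.6 to 97.8 and 107 FPKM (log2 change -1.89). Cdc20 and Top2a, which like Birc5 act in cell division, rose as well. So did Itgb2, a leukocyte integrin gene that was tested only because of its knockout values.

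Relatives and ligands of the members fell in 5 and rose in 2 of 8 tested cases, beside 30.6% and 35.2% of all genes, with a median of -0.64. Gas6 is counted here and in the conserved signature, and Ptpn14 in both the junction and the pan-cancer lists. In the CCN family of Cyr61 and Ctgf, Nov (Ccn3) fell from 259 and 282 to 114 and 153 FPKM (log2 change -1.02, limma adjusted p = 7.41e-06) and Wisp2 (Ccn5) from 146 and 143 to 78.9 and 81.3 FPKM. Wisp1 (Ccn4) rose from 2.52 and 2.64 to 9.65 and 10.4 FPKM (log2 change 1.62, limma adjusted p = 7.28e-08). Of the family, then, Ctgf and Wisp1 rose, Nov and Wisp2 fell, and Cyr61 did not pass. Wisp3 was listed at 0 in wild type and under 0.1 FPKM in knockout.

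Levels of cell type markers differed between the same libraries, and in bulk RNA fewer cells of a type and less RNA per cell cannot be told apart. Their counts stand beside 35.2% of all genes called higher and 30.6% called lower. All 7 smooth muscle markers fell, from sums of 15592 and 17478 FPKM to 4005 and 5279 FPKM. The 6 tested endothelial markers fell, with Kdr under 1 FPKM, and the list summed to 251 and 258 FPKM against 75.4 and 89.0. Fibroblast markers fell in 5 of 6 cases, with Lum higher, from 547 and 589 to 358 and 381 FPKM. The 7 macrophage markers rose, from 57.5 and 59.2 to 428 and 357 FPKM, of which Adgre1, at 0.701 and 0.859 FPKM in wild type, was tested only because of its knockout values. T cell and adipocyte markers were each under 1 FPKM in every library. The part of these shifts in the member values was not tested.

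**Figure D4:**
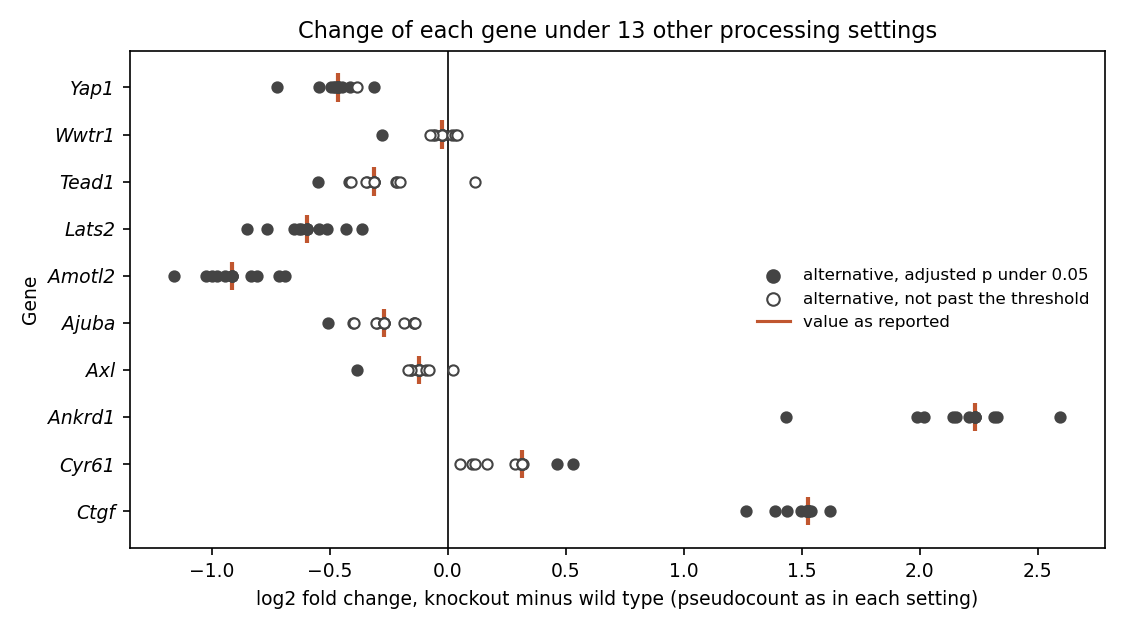
Log2 fold change of each gene (knockout minus wild type, horizontal axis) under 13 alternative settings, as circles filled where the adjusted p was under 0.05, with an orange line at the value as reported. Ctgf, Ankrd1, Lats2 and Amotl2 are filled in each setting, Yap1 in 12 of 13, and Tead1, Wwtr1 and Axl fall on both sides of 0.

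In the plot of the alternatives, Ctgf ranged from 1.26 to 1.62 and Ankrd1 from 1.43, with a pseudocount of 5, to 2.60, with a pseudocount of 0.1. Amotl2 ranged from -1.16 to -0.69, Lats2 from -0.85 to -0.36 and Yap1 from -0.72 to -0.31. Equal column totals moved the median of all genes from 0.03 to -0.20 on the log2 scale, and among called genes the share called higher went from 53.5% to 35.8%. At that setting Wwtr1 was at -0.28, Axl at -0.39 and Ajuba at -0.51, and each passed as lower (limma adjusted p = 0.0203, 0.00227 and 0.00373).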

How the data were processed

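Polyadenylated RNA of aorta was sequenced in 4 libraries, 2 per genotype, grouped by the genotype label. Replicate numbers are names only. The authors deposited FPKM in a separate file for each library, with the unit misspelt in the headers. The submitters' processing notes list build mm10, DESeq2 1.16.1, featureCounts 1.5.0-p3 and HISAT2 2.0.5, with no step named for any. The sources used here do not say how FPKM were made. Among genes under 0.3 FPKM no common step between libraries was found (the most frequent ratio covered at most 0.464% of genes), so fragment counts were not recovered and depth is unknown. Rows with repeated symbols (4) were left out. Between replicates, 0 genes above 0 had equal values.

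From FPKM, log2(FPKM + 1) was fitted in R 4.3.3 by limma 3.58.1, its variances trended on intensity, and the fit was tested on simulated data. In the fit of all 4 libraries, each gene had 13.4 degrees of freedom, 2 of them its own. Positions are GENCODE M21 on GRCm38, the same assembly as mm10, and promoter sequences are RefSeq's (GRCm38.p6). Ratios used exact permutation in SciPy 1.17.1. Named were every member, Ggps1, up to 4 called genes per list by smallest p, relatives of members, and the 3 nearest profiles of 4 members. Some genes chosen in this way are not reported here. Genes outside this rule were chosen after their values were seen. Members and lists were chosen with earlier results of these data known. Alternatives were 2 pseudocounts, 2 filters, 2 scalings, 2 variance models, leaving out each library, and, added after seeing the data, removal of length and GC trends.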

Additional observations from a re-analysis of the deposited data

How the results depend on the processing

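Under 12 alternatives, and 1 added after seeing the data, the count of members called higher was 2 in all but 2 of them. It was 3 without wild-type library 2 or knockout library 1, where Cyr61 joined. The count called lower was 4 as reported, 7 with equal column totals and 5 with median-of-ratios scaling. Of all genes tested, 30.6%, 45.3% and 33.3% were called lower at these settings. The count of members was 3 with a pseudocount of 0.1, with no filter on low values and with length and GC trends removed. There 30.1%, 21.6% and 29.2% of all genes were called lower. When 1 library was left out the count of members moved in either direction. Direction reversed for Wwtr1 (-0.02), with 0.016 when wild-type library 2 was left out, 0.029 when knockout library 1 was, and 0.037 with length and GC trends removed, over a leave-one-out range of -0.077 to 0.029. It reversed for Tead1 (0.11) and Axl (0.022) with length and GC trends removed. The cause was not tested. Where a library is left out, the lone library is assumed to vary like the other genotype. Without wild-type library 1 or 2, standard errors followed the level of a gene more than its own replicate spread. Cyr61 then had an SE of 0.16 and Wwtr1 of 0.18, although the knockout replicates of Cyr61 differed more. Calls made or ended in those fits therefore give little or no weight to a gene's own spread. No paired analysis was possible because the labels number the libraries without pairing them. Depth is unknown and precision rests on 2 libraries per genotype.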
